A study of Mus musculus with 2 samples.

Results

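Among the haematopoietic stem and progenitor cells sequenced here, a set of cells carried transcripts of several of 6 genes that have no obvious common role: Hbb-bt, Shisa8, Akr1c13, Gm5111, Dqx1 and Il21r. Members were cells with 1 or more unique molecular identifier (UMI, the count of 1 captured transcript) in at least 3 of the 6 genes, taken from barcodes with over 200 genes and under 10% mitochondrial UMIs. There were 3096 members of 18031 kept cells: 247 of 8815 in the WT library (2.80%, interval 2.47% to 3.17%) and 2849 of 9216 in the cKO library (30.9%, interval 30.0% to 31.9%). They were described against the cells of the same library with 0 UMIs of all 6 genes, called zero cells below (4357 in WT and 1259 in cKO), while 4211 WT and 5108 cKO cells had 1 or 2 of the genes. Since the 6 genes chose the members, their own levels in members are a description and carry no test.

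The cells were Lin- Sca-1+ c-Kit+ (LSK) cells of mouse bone marrow at 3 months of age, from 1 library per genotype. The labels give Trmt6fl/fl for WT and Trmt6fl/fl, MX1-cre for cKO, so that by the labels both carried the floxed allele. The study's account of the single-cell experiment instead gives a Trmt6+/+ Mx1-Cre control, without the floxed allele, and pIpC injection of the mice, and its description of the strains names Trmt6fl/+ Mx1-Cre. Which of these the WT library was is not settled by the sources. Mx1-Cre is an interferon-inducible recombinase that acts in many tissues besides blood. Trmt6 encodes a subunit of the methyltransferase that makes N1-methyladenosine on tRNA, and Trmt61a its catalytic partner. With 1 library on each side, genotype, recombinase and library cannot be told apart, and all intervals given are exact 95% intervals for counting error only. No p-value can be given, and members of 1 library are not replicates.

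Adult red cell precursors make haemoglobin from paired alpha and beta chains, the former from Hba-a1 and Hba-a2 and the latter from Hbb-bs and Hbb-bt, under the transcription factors GATA1 and KLF1. Haem synthesis runs alongside, and stem cells keep these programmes low while they express regulators such as Mecom and Hlf. Of the other genes, Shisa8 encodes a transmembrane adaptor studied mainly in neurons, Akr1c13 an aldo-keto reductase, Dqx1 a putative RNA-dependent ATPase and Il21r the receptor chain for interleukin-21. Gm5111 is annotated as a processed transcript with no known protein. In mm10 (GENCODE M21) Hbb-bt lies on chromosome 7 at 103812524 to 103813996, downstream of Hbb-bs at 103826534 to 103828096, and Il21r on the same chromosome at 125603429 to 125633570. Shisa8 is on chromosome 15 (82206168 to 82212815), Akr1c13 on chromosome 13 (4191150 to 4205596), and Gm5111 (48589445 to 48590584) and Dqx1 (83057844 to 83067318) are both on chromosome 6.

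The promoters of the paired adult beta globin genes are shown because Hbb-bt was one of the genes that chose the members while its neighbour Hbb-bs was found in few of them. The sequences are from RefSeq (GRCm38.p6) and give the 250 bases before each RefSeq start, both on the minus strand. They span chr7:103813924-103814173 for Hbb-bt and chr7:103827929-103828178 for Hbb-bs. The GENCODE M21 starts differ, at 103813996 and 103828096, and lie inside these windows. Capitals mark the GATA factor motif GATAA, the KLF factor motif CACCC, the CCAAT box and the letters ATAAA, each on either strand.
Hbb-bt: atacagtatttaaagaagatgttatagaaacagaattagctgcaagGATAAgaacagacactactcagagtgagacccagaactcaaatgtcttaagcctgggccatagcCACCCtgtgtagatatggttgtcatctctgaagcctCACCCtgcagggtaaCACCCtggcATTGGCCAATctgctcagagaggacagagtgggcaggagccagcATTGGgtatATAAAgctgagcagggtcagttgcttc
Hbb-bs: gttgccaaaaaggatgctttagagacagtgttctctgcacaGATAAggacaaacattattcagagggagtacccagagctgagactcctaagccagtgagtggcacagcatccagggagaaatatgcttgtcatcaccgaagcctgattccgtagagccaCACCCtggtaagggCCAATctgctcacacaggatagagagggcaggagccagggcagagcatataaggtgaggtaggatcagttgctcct
Both held 1 GATAA. Hbb-bt held 3 CACCC, 3 CCAAT (2 of them side by side on opposite strands) and 1 ATAAA, and Hbb-bs 1, 1 and 0 of these. The search was for exact letters, so a TATA box spelled otherwise is not marked. The motifs were present in 22.6%, 52%, 33.8% and 37.3% of 32851 promoter windows of the same length, and 175 of 244 aligned bases (71.7%) were identical between the pair. A match describes the letters and not a bound site.

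The 2 libraries differed in depth, which the rule depends on. WT held 8869 barcodes with 47991455 UMIs and cKO 9260 barcodes with 98323201 UMIs, with medians of 4344 and 10306 UMIs per kept cell. Members were also deeper than zero cells, at a median of 5660 against 4093 UMIs in WT and 11004 against 8670 in cKO. The libraries shared 24 barcodes, none of them a member in both (0 shared). Simulated-doublet scores marked 15.8% of WT members against 5.71% of zero cells, and 11.8% against 3.65% in cKO. How far depth and doublets account for membership was not tested. The rule was therefore also read after each cell had been thinned at random to 2000 UMIs, with shallower cells left out (205 in WT, 114 in cKO). It then took 38 of 8610 WT cells (0.441%) and 190 of 9102 cKO cells (2.09%, interval 1.80% to 2.40%).

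**Figure D1:**
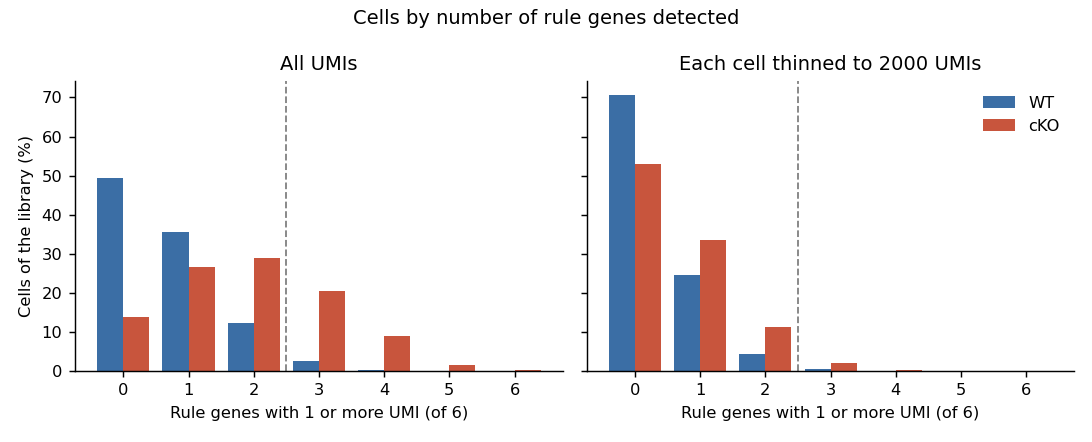
Percent of cells of each library (vertical axis) by the number of the 6 rule genes with a UMI (horizontal axis), with all UMIs on the left and after thinning each cell to 2000 UMIs on the right. Cells right of the dashed line are members: 2.80% of WT and 30.9% of cKO with all UMIs, and 0.441% and 2.09% after thinning.

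The sorted identity of the members was checked first. At 2000 UMIs per cell, Kit, the c-Kit receptor of the gate, had a UMI in 11.0% of WT and 5.12% of cKO members, and Ly6a, which encodes Sca-1, in 10.2% and 25.8%. The zero cells stood at 13.7% and 4.04% for Kit and at 7.999% and 24.1% for Ly6a. Trmt6 was counted at 64.4 CPM (UMIs of a gene per 1000000 UMIs of the class) in WT members and 50.3 CPM in cKO members, and at 64.7 and 49.2 CPM in the zero cells. The log2 ratio between members was -0.36 (interval -0.64 to -0.06). The library counts tags near transcript ends, and the deleted exons are not given in the sources used here, so this level does not check the deletion. For Trmt61a the members' levels were 19.8 CPM (WT) and 30.3 CPM (cKO).

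Of the 6 genes, Hbb-bt differed most between the libraries. It had a UMI in 616 WT cells (6.99%) and 3903 cKO cells (42.4%), and at 2000 UMIs per cell in 3.45% (3.07% to 3.86%) and 21.8% (20.95% to 22.7%). Over all kept cells its level was 25.5 CPM (WT) and 242 CPM (cKO). Shisa8 and Akr1c13 differed less at equal depth: 3.55% of WT and 7.64% of cKO cells for Shisa8, and 8.33% and 11.8% for Akr1c13. Gm5111 was found in 10.9% and 14.1%. Il21r did not separate the libraries at this depth, at 6.20% (5.70% to 6.73%) in WT and 6.44% (5.94% to 6.96%) in cKO, although 13.6% and 27.8% of cells had a UMI before thinning. Dqx1 went the other way, with 2.18% of WT and 1.03% of cKO cells.

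**Figure D2:**
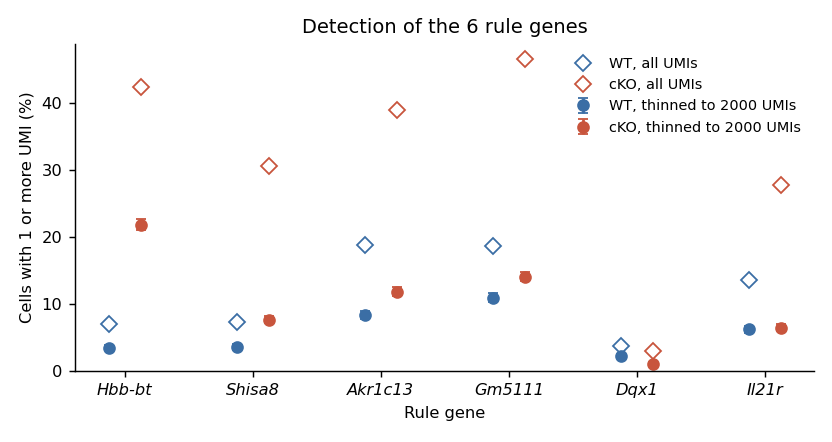
Percent of kept cells with a UMI of each rule gene, WT and cKO, for all UMIs (open diamonds) and after thinning to 2000 UMIs per cell (filled points with 95% exact intervals). Hbb-bt separates the libraries most at equal depth, at 3.45% and 21.8%, while the Il21r points lie at 6.20% and 6.44%.

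Within members the levels did not all follow these shares. Summed over members, Hbb-bt was at 121 CPM in WT and 478 in cKO, Shisa8 at 78.0 and 76.1, Akr1c13 at 125 and 108, Gm5111 at 151 and 121, Il21r at 108 and 60.9, and Dqx1 at 165 and 21.3. Hbb-bt was in 39.7% of WT members and 76.6% of cKO members. The most frequent combination in WT was Akr1c13 with Gm5111 and Il21r (37 members, 15.0%), and in cKO Hbb-bt with Akr1c13 and Gm5111 (363 members, 12.7%). Gm5111 was the gene found most often in members of both libraries (77.7% in WT and 78.7% in cKO). Most detections were single UMIs: of the cells with Shisa8, 87.6% in WT and 68.7% in cKO held 1 UMI, and of those with Il21r 89.1% and 79.7%. In cKO, Hbb-bt had single UMIs in only 35.4% of the cells that had it, and 1389 cells with 5 or more held 81.3% of its UMIs. Just inside the threshold, the 1884 cKO cells with exactly 3 genes had a mean of 8.56 UMIs of the 6 genes, and just outside it the 2660 cells with exactly 2 genes had 4.77. In WT these means were 4.49 in 220 cells and 2.74 in 1089 cells.

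At equal depth the share of cells with 1 rule gene was higher among cells with another than among cells without it in 12 of 15 pairs in WT and 11 of 15 in cKO, mostly within counting error. Of the 15 pairs, the share of cells with the second gene was higher among cells with the first than among cells without it, with intervals that did not overlap, in 1 pair in WT and 4 pairs in cKO, and lower in 0 pairs of either. In WT, Gm5111 was in 20.6% (16.2% to 25.6%) of cells with Shisa8 and 10.5% of cells without it. In cKO, cells with Hbb-bt had Akr1c13 in 15.9% (14.3% to 17.6%) against 10.6%, Gm5111 in 18.1% against 12.9%, and Shisa8 in 9.73% against 7.05%. The remaining cKO pair was Shisa8 with Il21r, at 9.93% against 6.15%. Akr1c13 and Gm5111 did not go together in cKO: 13.4% (11.4% to 15.6%) of cells with Akr1c13 and 14.2% of the others held Gm5111.

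Dqx1 behaved unlike the others. Its UMIs were concentrated in a few cells: 60 WT and 54 cKO cells with 5 or more held 77.1% and 75.1% of all its UMIs, with up to 52 and 46 in 1 cell. These cells carried more of the granulocyte-monocyte progenitor (GMP) list, at 10397 CPM against 7607 CPM in the other WT cells and 2155 against 1122 CPM in cKO (log2 ratios 0.45 and 0.94). The stem cell (HSC) list was lower in them in both libraries, with log2 ratios of -0.63 (-0.77 to -0.50) and -0.37 (-0.46 to -0.29). These values are at full depth, and the cells were deep, with medians of 7499 UMIs in WT and 12044 in cKO. Among all cells with a Dqx1 UMI at 2000 UMIs per cell, the GMP ratio was 0.05 (-0.02 to 0.12) and the HSC ratio -0.02 in WT, and 0.82 and -0.38 in cKO. Of the cells with 5 or more Dqx1 UMIs, 15 in WT and 35 in cKO were members.

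Hbb-bt was found without the other adult globins. In cKO members it had 15800 UMIs, beside 258 of Hbb-bs, 29 of Hba-a1 and 23 of Hba-a2, a ratio of 61.2 Hbb-bt UMIs per Hbb-bs UMI. In WT members the counts were 195, 1, 4 and 2. UMIs were counted at transcript ends and were not divided by length. Of all cells with Hbb-bt, 596 of 616 in WT (96.8%) and 3644 of 3903 in cKO (93.4%) had no UMI of the other 3 genes. WT also held 7 cells with 10 or more Hbb-bt UMIs, which had 628 UMIs of Hbb-bs and 767 of Hba-a1 together and an erythroid progenitor list at 8631 CPM. Most of this came from very few cells: the highest single WT cells held 230 UMIs of Hbb-bt, 590 of Hbb-bs and 617 of Hba-a1, while the highest WT member held 15 of Hbb-bt. The cKO cells with 10 or more were 715 in number, with 60.4 CPM of Hbb-bs (498 UMIs) and an erythroid progenitor list at 1265 CPM. The highest single cKO cell held 339 of the library's 948 Hbb-bs UMIs, and the highest cKO member 21. The Hbb-bt and Hbb-bs transcripts are 92.7% identical over 626 aligned bases and 75.5% identical in their last 150 bases, so reads may be shared between them, and their assignment was not tested.

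Detection of Hbb-bt in cKO differed between groups of cells picked by their number of markers with all UMIs. These groups can overlap, and the one with 6 or more HSC markers held 6178 of the 9216 cKO cells. Over all kept cKO cells the share with Hbb-bt at 2000 UMIs was 21.8%. At 2000 UMIs per cell it was found in 25.3% (24.3% to 26.4%) of 6177 cells with 6 or more HSC markers and in 15.7% (12.4% to 19.5%) of 439 cells with 6 or more erythroid progenitor markers. As a reference for free RNA, 6.41% (3.12% to 11.5%) of 156 cells with 3 or more B cell markers had it, and 17.6% (12.8% to 23.3%) of 216 cells with 3 or more T, NK or ILC markers. The median depths before thinning were 10562, 13509, 7042 and 8435 UMIs. The number of Hbb-bt UMIs per Hbb-bs UMI was 40.0 in the HSC-marker cells, 39.7 in the T, NK or ILC-marker cells, 14.8 in the erythroid-marker cells and 14.3 in the B-marker cells. The share in B-marker cells lay below the other 3 groups, and its interval did not overlap theirs.

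Within cKO, cells with Hbb-bt UMIs had more transcripts of the HSC list than cells without, and also more of the summed erythroid progenitor list. From 0 to 5 to 9 Hbb-bt UMIs the HSC list went from 1905 to 3124 CPM, and it stood at 2999 CPM in cells with 10 or more. Mecom, a regulator of long-term stem cells, went from 45.3 to 72.9 CPM and Procr, the endothelial protein C receptor that marks HSCs, from 26.4 to 48.5 CPM between cells with 0 and with 10 or more. The erythroid progenitor list was at 950, 1009, 1107, 1271 and 1265 CPM with 0, 1, 2 to 4, 5 to 9 and 10 or more Hbb-bt UMIs. Its regulators did not go with the sum: Gata1 was at 7.55, 5.34, 6.36, 2.96 and 2.91 CPM and Klf1 at 3.30, 1.80, 0.805, 3.10 and 0.850 CPM in these bins. Car1, a carbonic anhydrase of early erythroid cells, was at 9.58 CPM with 0 and 0.121 CPM with 10 or more. The median total UMIs of these bins lay between 10002 and 10902.

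**Figure D3:**
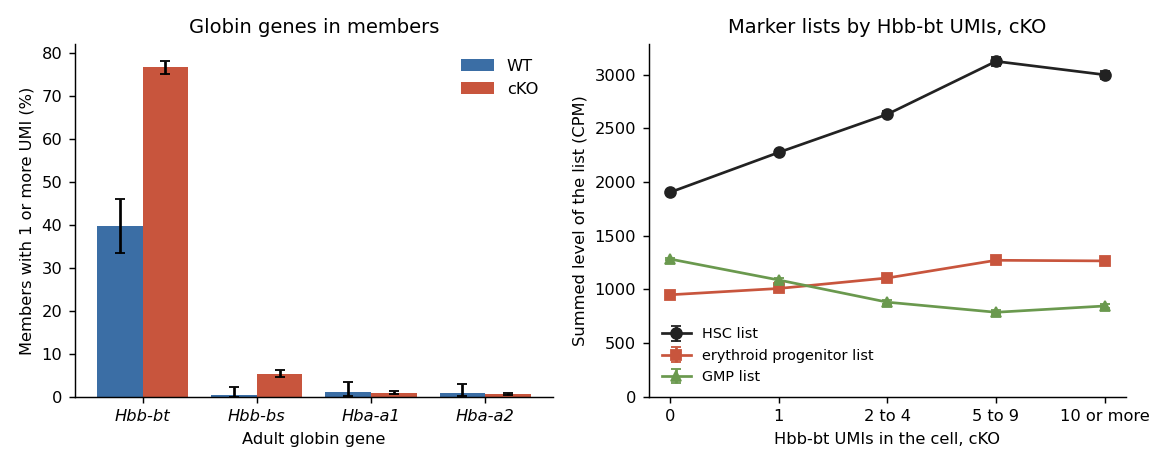
Left, percent of members with a UMI of each adult globin gene in WT and cKO, with 95% exact intervals; Hbb-bt is in 39.7% and 76.6% and Hbb-bs in 0.405% and 5.41%. Right, summed CPM of 3 marker lists in cKO cells by their number of Hbb-bt UMIs, with 95% Poisson intervals mostly smaller than the points; the HSC list goes from 1905 to 2999 CPM and the GMP list from 1282 to 846 CPM.

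Members were then compared with zero cells of their own library for genes outside the rule, at 5 CPM or more in either class, as log2 ratios with 0.5 prior counts. In WT, 80 of 9130 genes (0.876%) were over 2-fold higher in members and 128 (1.4%) over 2-fold lower. In cKO, 27 of 8797 genes (0.307%) were over 2-fold higher and 117 (1.33%) over 2-fold lower. The median of all genes was 0.02 in WT and -0.01 in cKO. Each list below was read against these values.

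HSC genes were higher in cKO members. Of the 20 listed, 18 were measured in cKO, 13 were above 0 with a median log2 ratio of 0.17, and 0 were past 2-fold. Ifitm1, an interferon-induced membrane protein abundant in HSCs, was at 1695 CPM in cKO members and 909 CPM in zero cells, a log2 ratio of 0.90 (0.87 to 0.93). Hlf, a transcription factor of quiescent HSCs, was at 92.96 and 57.5 CPM (0.69, 0.57 to 0.82), and Mecom at 63.0 and 38.0 CPM (0.73, 0.58 to 0.88). Procr was at 38.7 and 22.5 CPM (0.78, 0.58 to 0.98), and Hoxa9 at 103 and 76.2 CPM (0.43, 0.32 to 0.54). With Hbb-bt left out of the rule the list's median in cKO was 0.02. Gata2 and Txnip lay below the zero cells at -0.72 (-0.84 to -0.60) and -0.46 (-0.58 to -0.35).

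The same list did not stand out in WT at full depth. There 9 of 17 measured genes were above 0, the median was 0.01 (0.005 before rounding), and 2 genes were over 2-fold lower. Ifitm1 was at 916 CPM in WT members and 795 CPM in zero cells (0.20, 0.13 to 0.28), and Procr at 19.8 and 10.2 CPM (0.98, 0.38 to 1.496, from 32 UMIs in members). Gata2 was at 29.7 and 65.2 CPM (-1.12, -1.58 to -0.72). The difference between the libraries in these ratios was not tested.

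With depth held equal, the summed HSC list was higher with more rule genes in both libraries, though not every gene of it was. In cells thinned to 2000 UMIs, the HSC list went from 1720.5 CPM with 0 rule genes to 2019, 2275 and 2789.5 CPM with 1, 2 and 3 or more in WT (38 cells in the last). In cKO it went from 2104 to 2821, 3418 and 4139.5 CPM. Without Ifitm1 the sequence was 769, 881, 969 and 1184 CPM in WT and 848, 982, 1086 and 1184 CPM in cKO, with the last intervals 952 to 1456 and 1077 to 1299 CPM. With all UMIs the summed list in WT was at 1504.5 CPM in members and 1418 CPM in zero cells (log2 0.09, 0.03 to 0.15), beside a median over genes near 0. Mllt3, a regulator that maintains HSC self-renewal, went from 35.8 to 86.8 CPM in cKO and from 20.9 to 26.3 CPM in WT, where the last value rests on 2 UMIs (3.19 to 95.1). Mecom went from 52.1 to 94.7 CPM in cKO, and in WT from 28.6 to 53.2 CPM with 2 rule genes and to 1 UMI with 3 or more. Other genes of the list did not go up from 0 to 3 or more: in cKO, Meis1 was at 59.0 and 57.9 CPM, Gata2 at 63.0 and 63.2, Slamf1 at 7.15 and 5.26 and Txnip at 74.0 and 42.1, and in WT Gata2 was at 72.2 and 52.6 CPM and Slamf1 at 6.49 CPM and 0 UMIs. For all rule genes but Dqx1 in cKO, cells picked by a UMI after thinning had fewer UMIs before it: with and without Hbb-bt, medians were 3819 and 4450 in WT, and with and without Shisa8 they were 9936 and 10401 in cKO.

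**Figure D4:**
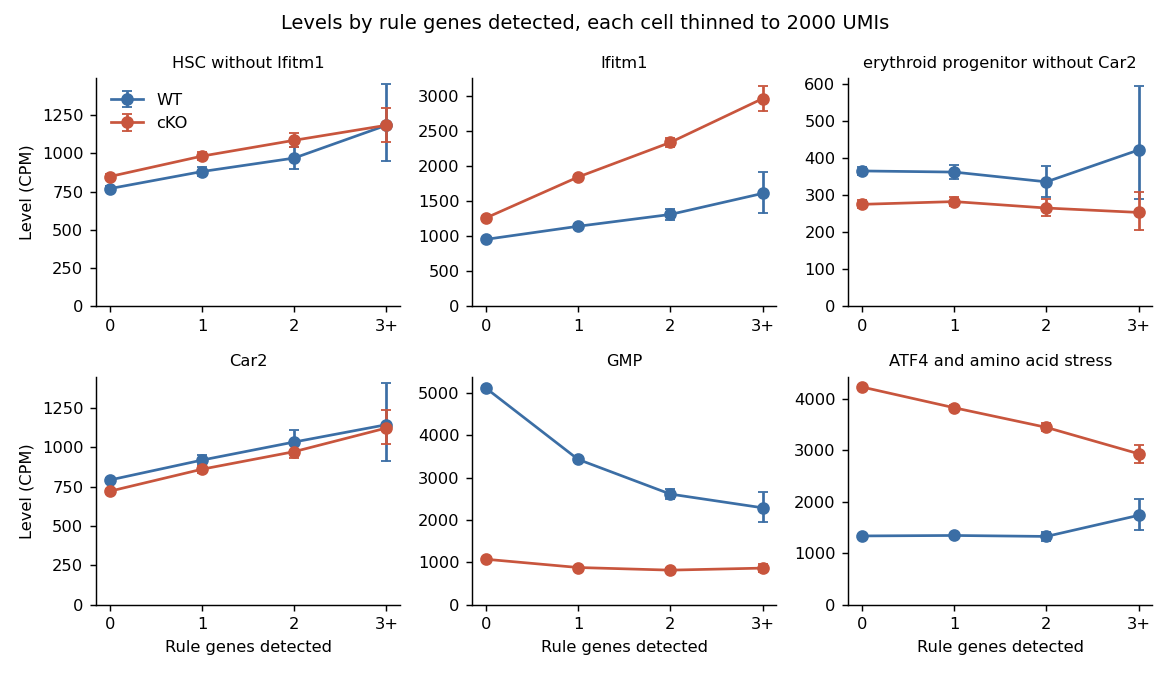
Level in CPM (vertical axes, from 0) of lists and single genes by the number of rule genes detected, with every cell thinned to 2000 UMIs, WT and cKO, and 95% Poisson intervals. The summed HSC list without Ifitm1, Ifitm1 and Car2 go up with the number of rule genes in both libraries, the erythroid progenitor list without Car2 stays between 253 and 421 CPM, GMP genes are lower with 1 or more rule genes than with 0, and ATF4 genes go down in cKO from 4228 to 2932 CPM.

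The genes of the rule were not alike in this respect. In cKO at equal depth, the log2 ratio of the HSC list between cells with and without the gene was 0.66 (0.62 to 0.69) for Akr1c13, 0.53 (0.50 to 0.56) for Hbb-bt, 0.25 for Shisa8, 0.18 for Gm5111, 0.16 for Il21r and -0.38 (-0.53 to -0.23) for Dqx1. In WT it was 0.41 for Gm5111, 0.25 for Hbb-bt and between 0.14 and 0.17 for Akr1c13, Shisa8 and Il21r, and -0.02 (-0.13 to 0.09) for Dqx1. Gm5111 also went with the lymphoid-primed (LMPP) list, at 0.66 (0.60 to 0.71) in WT and 0.46 (0.39 to 0.54) in cKO, whereas Akr1c13 cells had less of it (-0.23 and -0.56). For Shisa8 the LMPP ratio was 0.59 in WT and 0.00 in cKO. The summed erythroid progenitor list was also higher in cells with Hbb-bt, at 0.28 in WT and 0.33 in cKO. Its ratio was 0.21 and 0.10 for Akr1c13, 0.16 and 0.21 for Il21r, and 0.14 and 0.10 for Gm5111. For Shisa8 it was -0.10 and 0.09, and for Dqx1 0.03 and -0.10. These sums keep the abundant genes Ifitm1 (HSC) and Car2 (erythroid progenitor).

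Erythroid progenitor genes were mostly lower in members of both libraries, despite the globin in the rule. In WT, 1 of 14 measured genes was above 0, with a median of -0.37, and 5 were over 2-fold lower. In cKO, 4 of 13 were above 0, with a median of -0.47, and 5 were over 2-fold lower. Gata1 was at 3.10 CPM in WT members and 20.004 CPM in zero cells (-2.56, -4.32 to -1.46), and at 3.21 and 16.7 CPM in cKO (-2.38, -2.74 to -2.03). Klf1 was at 0.756 CPM in cKO members and 8.73 CPM in zero cells (-3.51, -4.22 to -2.88), and Gfi1b, a repressor required for red cell and platelet formation, at 9.29 and 20.9 CPM (-1.17). The summed level of the list in cKO went the opposite way to its median, at 1111 CPM in members and 980 CPM in zero cells, and most of it was Car2, a carbonic anhydrase, at 869 and 657 CPM (0.40, 0.37 to 0.44). In the 38 WT members of the thinned rule the median of the list was 0.43, on the other side of 0.

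The list of globin and haem genes outside the rule had medians near 0, while the globins in it lay far from 0 in cKO. Hbb-bs was at 7.80 CPM in cKO members and 4.10 CPM in zero cells (0.92, 0.47 to 1.42), and Hba-a1 at 0.877 and 6.50 CPM (-2.88, -3.56 to -2.25). Of 11 measured genes in WT 6 were above 0 (median 0.07), and of 13 in cKO 3 were above 0 (median -0.09). Alas1, which catalyses the first step of haem synthesis in most cells, was at 118 CPM in WT members and 113 CPM in zero cells, and at 26.1 and 33.0 CPM in cKO. Slc25a39, a mitochondrial carrier, was at 73.2 and 73.7 CPM in cKO. Megakaryocyte genes were lower, with medians of -0.64 in WT and -0.39 in cKO, but at 0.30 and 0.21 under the thinned rule. Itga2b, the platelet integrin chain CD41, was at 7.53 CPM in cKO members and 23.2 CPM in zero cells (-1.62, -1.88 to -1.36), and at 26.0 and 27.6 CPM in WT. Pf4 was at 67.5 and 154 CPM in WT, but 56.0% of its UMIs in members came from 1 cell.

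Myeloid genes were lower in cKO members. Of 7 measured GMP genes, 0 were above 0 there, with a median of -1.45, and 4 were over 2-fold lower. Mpo, the granule peroxidase, was at 47.7 CPM in cKO members and 253 CPM in zero cells (-2.41, -2.50 to -2.32), Elane, neutrophil elastase, at 24.4 and 132 CPM (-2.44), and Ctsg, cathepsin G, at 175 and 480 CPM (-1.45). Few cells carried the first pair: 10 cells held 95.9% of Elane UMIs in cKO members and 97.8% in zero cells, and 65.1% and 64.6% of Mpo UMIs. In WT Mpo was at 1906.5 and 2228 CPM (-0.23), and the list median was -0.14. Against zero cells with a total between the quartiles of the members' UMIs, the GMP median was -0.06 in cKO and 0.42 in WT. LMPP genes had a median of 0.19 in WT and -0.26 in cKO, which was 0.21 without cells carrying mature lineage markers. In cKO, Dntt, the lymphoid DNA polymerase, was at 26.3 CPM in members and 51.7 CPM in zero cells (-0.97) and Flt3, a cytokine receptor of early progenitors, at 33.7 and 23.3 CPM (0.53).

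In cKO, cells with markers of mature lineages were a larger share of zero cells than of members. Cells with 3 or more markers of neutrophils, B cells, T, NK or ILC cells, mast cells or basophils, eosinophils or plasma cells were 9.09% of zero cells and 8.50% of members in WT, and 15.3% of zero cells and 3.19% of members in cKO. In WT the neutrophil list summed to 241 CPM in members and 9756 CPM in zero cells, where 10 cells held 27.9% of the UMIs of S100a8. In cKO the plasma cell list summed to 186 and 2849 CPM, the latter mostly Jchain, of which 10 zero cells held 52.4% of the UMIs, and the mast cell or basophil list to 24.3 and 414 CPM. B cell genes summed to 54.2 and 255 CPM in cKO, with 0 of 7 above 0, and T, NK or ILC genes to 296 and 492 CPM. With all cells of 3 or more such markers left out, the HSC and erythroid progenitor medians were 0.11 and -0.50 in cKO and -0.04 and -0.50 in WT.

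Among the 8 genes with the highest ratios in each library, by the limits on level and cells given in the methods, Egfl7 was in both. This secreted vascular factor, which is also expressed in HSCs, was at 221 CPM in WT members against 143 CPM (0.63, 0.46 to 0.78) and at 245 against 133 CPM in cKO (0.88, 0.80 to 0.96). In WT the other 7 were Gatad2b, Wfdc17, Zmynd19, Satb1, Plk4, Lig1 and Nrm. Satb1, a chromatin organiser of lymphoid cells, was at 92.9 against 62.5 CPM (0.58), and Lig1, the replicative DNA ligase, at 187 against 130 CPM (0.53). Gatad2b was at 80.5 CPM, but 48.5% of its UMIs in members came from 1 cell, without which it was at 41.6 CPM. Plk4, the kinase of centriole duplication, likewise had 38.9% of its UMIs in 1 cell. Several genes among the 8 of 1 library were also higher in members of the other: Lig1 was at 0.53 in WT and 0.73 in cKO, Nrm at 0.55 and 0.60, Tk1 at 0.51 and 0.88, and 2810417H13Rik at 0.40 and 0.80. Others were not: in cKO Satb1 was at -0.62 (-0.89 to -0.34) and Gatad2b at -0.13, and in WT Socs2 was at -1.58 (-7.48 to 0.38) from 1 UMI in members.

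In cKO the highest ratio among genes at 50 CPM or more, with 10 CPM added, belonged to Gem, a small GTP-binding protein, at 97.0 CPM in members and 46.9 CPM in zero cells (1.05, 0.91 to 1.18). Socs2, a feedback inhibitor of cytokine signalling, was at 113 and 59.2 CPM (0.94, 0.82 to 1.06), Tk1, thymidine kinase of S phase, at 126 and 68.3 CPM (0.88), and S100a6 at 306 and 176 CPM (0.79). The remaining high genes were Ifitm1, Egfl7, 2810417H13Rik and Fam69b, between 0.80 and 0.90. The 8 lowest in cKO were Jchain, Cd74, Mpo, H2-Aa, Id2, Ctsg, Mt1 and Fcer1g. Cd74 and H2-Aa, of the antigen presentation machinery, were at 79.7 against 477 CPM (-2.58) and 23.1 against 81.5 CPM (-1.82), and Mt1, a metallothionein, at 51.7 against 146 CPM (-1.496). For Cd74 and H2-Aa, 10 zero cells held 50.3% and 67.8% of the UMIs. The share of cells with a UMI was higher in members (32.5% against 20.97% for Cd74, 17.1% against 10.9% for H2-Aa), and at 2000 UMIs per cell it was 12.1% against 11.4% for Cd74 and 4.46% against 4.56% for H2-Aa. In WT the 8 lowest were S100a8, S100a9, Ngp, Camp, Ly86, Pf4, Mcpt8 and Hp, with S100a8 at 79.3 against 4398 CPM (-5.79).

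At full depth the p53 response and unfolded protein response medians were lower in cKO members than in cKO zero cells, and the ATF4 median less so. The NRF2 and heat shock medians were not lower. The p53 response list had 2 of 17 genes above 0, with a median of -0.71 and 4 genes over 2-fold lower. Cdkn1a, the cell cycle inhibitor p21, was at 88.2 CPM in members and 187 CPM in zero cells (-1.08, -1.16 to -1.001), Phlda3 at 39.8 and 75.3 CPM (-0.92), and Bax, a cell death effector, at 270 and 353 CPM (-0.39). The unfolded protein response list had 0 of 17 above 0 (median -0.29), with Hspa5, the main chaperone of the endoplasmic reticulum, at 310 and 413 CPM (-0.42). ATF4 and amino acid genes had 10 of 31 above 0 (median -0.10), with 0 past 2-fold. Ddit3, the stress factor CHOP, was at 75.1 and 132 CPM (-0.82) and Trib3, a pseudokinase of the ATF4 response, at 133 and 180 CPM (-0.44), whereas Asns, asparagine synthetase, was at 183 and 197 CPM (-0.10). At equal depth the summed ATF4 list in cKO went from 4228 CPM with 0 rule genes to 3825, 3444 and 2932 CPM with 1, 2 and 3 or more. In WT it was 1337, 1346, 1327 and 1737 CPM, the last with an interval of 1453 to 2060 CPM from 38 cells. The p53 list in cKO was at 889, 696, 588 and 576 CPM. The unfolded protein response list in cKO was at 2493, 2300, 2253 and 2392 CPM, and the last interval (2239 to 2553 CPM) held the first value.

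In WT the full-depth medians of the same lists lay near 0, and the difference between the libraries was not tested. The p53 list had a median of 0.11 and 9 of 13 genes above 0, the ATF4 list a median of 0.03 and 11 of 22, and the unfolded protein response a median of -0.06 and 7 of 17. Cdkn1a was at 117 CPM in WT members and 99.9 CPM in zero cells (0.23, 0.01 to 0.44). Heat shock genes had medians of 0.07 in WT and 0.01 in cKO. NRF2 genes had medians of -0.09 and 0.11, with 9 of 13 above 0 in cKO and summed levels at 0.02 and 0.19 (0.17 to 0.21 in cKO). Interferon response genes had medians of 0.13 and 0.02, which ranged over the alternatives from -0.25 to 1.12 in WT and from -0.19 to 0.55 in cKO. At equal depth their sum went from 629 CPM with 0 rule genes to 842 CPM (649 to 1075) with 3 or more in WT, and from 569 to 763 CPM (678 to 856) in cKO. The heat shock sum in WT went down from 4686 to 3921 CPM (3488.5 to 4392.5) and the NRF2 sum from 2415 to 1934 CPM (1634 to 2273). In cKO heat shock was at 6028 and 5934 CPM, and NRF2 went up from 2339 to 2708 CPM. Without the cells carrying mature markers, the cKO medians were -0.72 for p53, -0.20 for ATF4 and -0.16 for the unfolded protein response.

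With all UMIs, proliferation genes were slightly higher in members of both libraries and chromatin genes in cKO, but these sums did not go up with the rule genes at equal depth. The proliferation genes named by the study had a median of 0.09 in WT (15 of 22 above 0) and 0.21 in cKO (17 of 22), which was -0.00 under the thinned rule. Pcna, the replication clamp, was at 229 against 180 CPM in WT (0.35) and 214 against 176 CPM in cKO (0.29), and H2afz at 2772 against 2449 CPM in cKO (0.18). Chromatin and silencing genes had medians of -0.03 in WT and 0.22 in cKO, with summed levels at 0.04 and 0.18. Uhrf1, which recruits the maintenance methylase Dnmt1, was at 53.9 against 36.9 CPM in WT (0.55, 0.21 to 0.86) and 50.3 against 35.5 CPM in cKO (0.50, 0.34 to 0.66), and Cbx1, a heterochromatin protein, at 343 against 294 CPM in cKO (0.22). At equal depth the proliferation list did not go up with the rule genes: it was 5653 CPM with 0 and 4118 CPM with 3 or more in WT, and 5534 and 5395 CPM in cKO. The chromatin list in cKO was at 1340, 1384, 1318 and 1318 CPM with 0, 1, 2 and 3 or more. Immediate early genes had medians of 0.11 in WT and -0.52 in cKO (0.13 under the thinned rule), where Junb was at 210 and 322 CPM (-0.62). At equal depth the immediate early sum in WT was 7652, 8904, 10109 and 9908 CPM with 0, 1, 2 and 3 or more rule genes. In cKO it was 1766, 1714.5, 1735.5 and 1797 CPM.

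Relatives of the rule genes lay mostly near 0. Akr1c12, the neighbour of Akr1c13 on chromosome 13, was at 13.7 CPM in cKO members and 4.10 CPM in zero cells (1.73, 1.31 to 2.22), and at 3.72 and 3.52 CPM in WT. Akr1c19, another aldo-keto reductase, was at 7.05 and 0.980 CPM in cKO (2.79, 1.98 to 3.87, from 11 UMIs in zero cells). The transcripts of Akr1c12 and Akr1c13 are 94.6% identical over 1260 aligned bases and 85.8% identical in their last 150 bases, so their counts may share reads. The aldo-keto reductase list had medians of 0.09 in WT and 0.14 in cKO, with Akr1a1 at 225 and 217 CPM in WT. Of the Shisa family only Shisa5 was measured, at 138 against 104 CPM in WT (0.42) and 145 against 145 CPM in cKO (0.00). Of the interleukin-21 receptor pathway, Il2rg, the shared gamma chain, was at 77.7 and 75.8 CPM in cKO (0.04), and Cish, a STAT5 target that limits cytokine signals, at 35.4 and 22.3 CPM (0.67, 0.47 to 0.87), against a list median of -0.15.

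**Figure D5:**
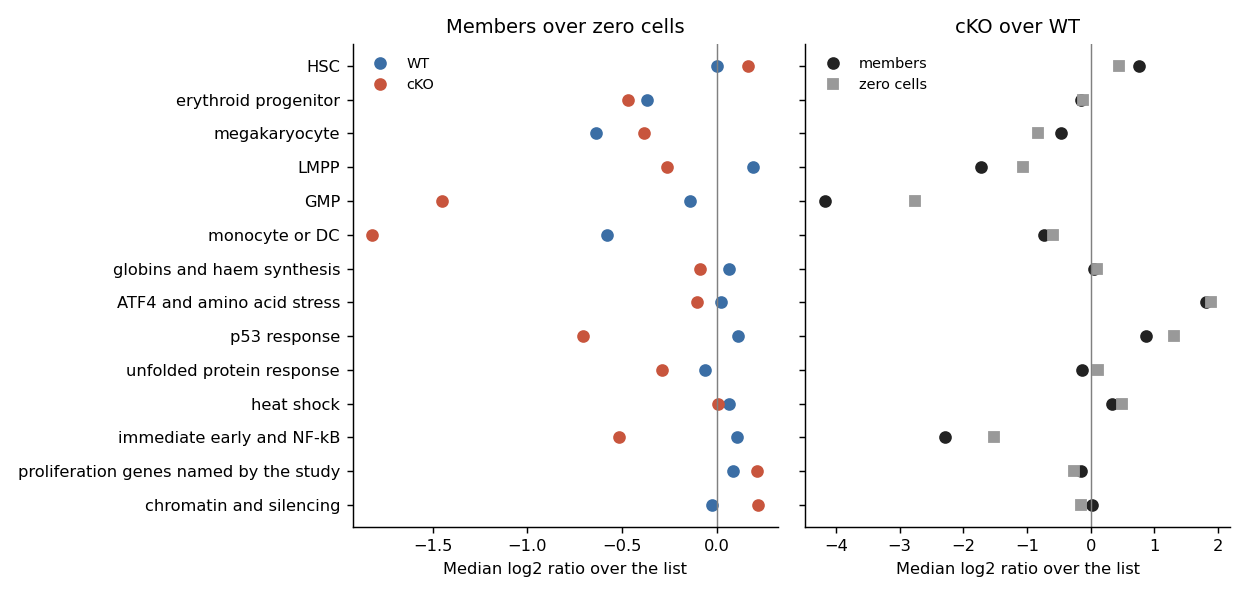
Median log2 ratio of each gene list (horizontal axes) for members over zero cells in WT and cKO (left) and for cKO over WT among members and among zero cells (right), without error bars because the genes of a list are not replicates. HSC is at 0.01 and 0.17 on the left and at 0.77 in members and 0.45 in zero cells on the right, and ATF4 genes at 1.81 and 1.90.

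Members of the libraries were compared with each other last, with the zero cells of both libraries beside them. Zero cells were 49.4% of WT and 13.7% of cKO cells, so they too were chosen by the rule and do not stand for the whole libraries. Of 9124 genes, 319 (3.5%) were over 2-fold higher in cKO members and 704 (7.72%) over 2-fold lower, with a median of all genes of -0.08. ATF4 and amino acid genes were higher in 30 of 31 measured, 26 of them over 2-fold, with a median of 1.81 in members and 1.90 in zero cells. Under the thinned rule the ATF4 median in members was 1.07. For Asns, WT members had 8.05 CPM and cKO members 183 CPM (4.46, 3.73 to 5.42), Mthfd2, a mitochondrial folate enzyme, at 22.3 and 216 CPM (3.26), and Trib3 at 2.48 and 133 CPM (5.58, 4.39 to 7.63, from 4 WT UMIs). Nupr1, a stress-induced chromatin protein, was at 4.96 and 226 CPM (5.43), and Atf5, an amino acid stress factor, at 2.48 and 73.2 CPM (4.72). The zero cells gave 4.28 for Asns, 3.12 for Mthfd2 and 6.64 for Trib3.

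HSC genes were higher in 16 of 18 measured, 7 of them over 2-fold, with a median of 0.77 among members and 0.45 among zero cells. For Mecom, WT members had 29.1 CPM and cKO members 63.0 CPM (1.10, 0.70 to 1.56), Mycn, a growth regulator expressed in stem cells, at 17.3 and 81.6 CPM (2.21, 1.70 to 2.83), and Ifitm1 at 916 and 1695 CPM (0.89, 0.81 to 0.96, against 0.19 in zero cells). Socs2 was counted once in WT members and at 113 CPM in cKO members (6.93, 5.04 to 12.82), against 4.41 in zero cells. Gem was at 5.57 and 97.0 CPM (4.04), and Cox6a2, a subunit of cytochrome oxidase, at 42.1 and 259 CPM (2.61) in members and at 3.75 on the log2 scale in zero cells.

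Myeloid and immediate early genes were lower in cKO members. GMP genes were below 0 in 11 of 11, with a median of -4.18 against -2.76 in zero cells. For Elane, WT members had 1570 CPM and cKO members 24.4 CPM (-6.01, -6.12 to -5.89) and Ms4a3 at 171 and 9.44 CPM (-4.18). Very few cells carried these levels: in WT members 10 cells held 91.2% of the Elane and 83.7% of the Ms4a3 UMIs, and in cKO members 1 cell held 50.1% of the Elane UMIs. Wfdc17 was at 305 and 5.96 CPM (-5.67), and the chemokines Ccl3, Ccl4 and Ccl9 were at 173, 221 and 170 CPM in WT members and at 2.03, 10.4 and 6.75 CPM in cKO members. Immediate early genes were below 0 in 25 of 25, with a median of -2.28 against -1.52 in zero cells, and Jun was at 1376 and 133 CPM (-3.37). The p53 list had a median of 0.87 in members and 1.32 in zero cells, with Cdkn1a at 117 and 88.2 CPM (-0.41) in members and 0.90 on the log2 scale in zero cells. Under the thinned rule the p53 median in members was -0.90. The erythroid progenitor list had medians of -0.16 and -0.11, while its summed level in members went the other way (0.38). The differences between members and zero cells in these ratios were not tested.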

How the data were processed

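Single LSK cells of 1 WT and 1 cKO mouse bone marrow library were captured with a 10x Genomics 3′ kit. The authors counted reads with Cell Ranger 6.0.0 against mm10, per the labels, and deposited raw UMI counts per gene and barcode, with 27998 features in each library. Near-identical genes can share reads or lose them at this step. The study's own upper limits on genes per cell were not applied.

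Barcodes with over 200 genes and under 10% mitochondrial UMIs were kept. UMIs were summed over cells of a class and given as CPM with exact Poisson intervals, shares with Clopper-Pearson intervals, and ratios as log2 with 0.5 prior counts and exact conditional binomial intervals, all at 95%. Genes at 5 CPM or more in either class were compared, and UMIs were not divided by length. With 1 library per group no test was possible, and leaving out a replicate was not possible either. For comparisons across depths each cell was thinned to 2000 UMIs with a fixed seed. Doublets were scored against simulated pairs (50 neighbours, 20 components, 1500 genes), marked at 0.8% per 1000 barcodes and kept in the values reported. Of 415 listed symbols 11 were not found.

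The members and gene lists were chosen with earlier results of these data known. Named genes were the 8 highest and 8 lowest log2 ratios with 10 CPM added, among genes at 50 CPM or more with a UMI in at least 10% of cells of the higher class, together with the rule genes, Trmt6, Trmt61a and up to 4 of the highest genes of each list. Other genes named from the lists were chosen after their values were seen. Alternatives changed the cell filter, doublets, the number and identity of rule genes, depth, scaling, minimum level and prior. The alternative without mature lineage cells was added after seeing the data. The calculation was tested on simulated data. Python 3.11, numpy 2.4.6, scipy 1.17.1, pandas 2.3.3, scikit-learn 1.9.0 and matplotlib 3.10.9 were used.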

Additional observations from a re-analysis of the deposited data

How the results depend on the processing

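No paired analysis was possible because each group held 1 library. The percent of cells that were members, WT and cKO, moved with the number and identity of the rule genes. With at least 2 genes it was 15.2% in WT and 59.8% in cKO, with at least 4 genes 0.306% and 10.5%, and on thinned cells 0.441% and 2.09%. Without Hbb-bt it was 1.91% and 16.6%, without Shisa8 1.72% and 20.5%, without Akr1c13 1.16% and 19.5%, without Gm5111 0.919% and 15.8%, and without Il21r 1.36% and 21.9%. Without Dqx1 the WT share was 2.26%, and with doublets left out the cKO share was 29.4%. 

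With the rule applied to thinned cells, HSC over zero cells was at 0.93 in WT and 0.64 in cKO, erythroid progenitor at 0.43 and -0.19, megakaryocyte at 0.30 and 0.21, and in cKO ATF4 at -0.59, LMPP at 0.23, immediate early at 0.13 and proliferation at -0.003. In cKO over WT members, erythroid progenitor was at -0.75, ATF4 at 1.07 and p53 at -0.90, and p53 was at -0.22 with at least 4 genes. The cKO HSC median was 0.017 without Hbb-bt, and the WT one -0.46 without Gm5111. Without Gm5111 the erythroid progenitor median was also -0.26 in cKO and 0.40 in cKO over WT members. The cKO ATF4 median was -0.28 without Akr1c13 and -0.047 with each cell scaled to 10000. The WT GMP median was 0.001 with at least 2 genes, 0.20 with at least 4, 0.06 without Shisa8, 0.40 without Gm5111 and 0.42 against zero cells of like depth. The cKO LMPP median was 0.091 without Akr1c13, 0.21 without mature lineage cells and 0.37 against zero cells of like depth, where erythroid progenitor was at -0.25. With no minimum level the erythroid progenitor median was -2.10 in cKO and -1.49 in cKO over WT members. The causes were not tested. Over 19 alternatives the cKO medians of HSC, erythroid progenitor, ATF4, p53 and unfolded protein response kept their sign, and the WT HSC median did so in 11 of 19.

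Counts of genes past 2-fold ranged from 1 to 2766 (higher) and 25 to 880 (lower) in WT, from 1 to 724 and 36 to 1720 in cKO, and from 91 to 957 and 183 to 4170 in cKO over WT members, mostly with the minimum level and the added CPM. WT had fewer UMIs per cell than cKO and held 247 members, which limits its values.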
